A study of Mus musculus with 18 samples.

Results

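The genes described are those of the type 2 cytokine response. They are the cytokine genes Il4, Il5, Il13 and Il24, the receptor genes Il4ra and Il1rl1, and the transcription factor genes Nfil3 and Bhlhe41. The members were picked by symbol, and every probe set annotated to 1 of these symbols alone was taken. Of the 8 genes, 7 had such a probe set, 10 probe sets in all, among 18193 genes measured. No probe set carried the symbol Il1rl1 in the annotation used here, so the receptor chain for interleukin-33 was not analysed here. Affymetrix arrays read the RNA of splenic CD4 T cells, which magnetic beads had purified from C57BL/6 mice between 9 and 15 weeks old. Some mice were wild type (WT), and others carried a transgene called Gli2A Tg or Gli2R Tg, after an activator and a repressor form of Gli2, a zinc finger protein through which Hedgehog signals act on transcription. From each genotype there were resting cells, taken fresh and unstimulated, and cells given anti-CD3 and anti-CD28 antibodies for 6 h, which trigger the T cell receptor complex together with its co-stimulatory receptor. Each of the 6 groups had 3 arrays, 18 in all. The labels do not give the promoter that drives either transgene, the number of founder lines or whether animals were pooled. They also do not say that the 3 samples of a group came from separate mice, so p-values measure the spread between these samples, which may be technical. No culture without antibody is among the groups, so a stimulation difference includes 6 h of culture.

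Type 2 helper T cells (Th2 cells) are CD4 T cells that secrete interleukins 4, 5 and 13 in responses to parasitic worms and in allergy. Interleukin-4 acts through a receptor that contains the Il4ra chain and drives further cells into the Th2 state by way of STAT6 and GATA3, while interleukin-5 sustains eosinophils and interleukin-13 acts on epithelium and smooth muscle. The Il4, Il13 and Il5 genes lie in 1 cluster, and T cell receptor signals reach them through NFAT and AP-1 proteins.

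Levels are given as log2 of the deposited intensity plus 16 after quantile normalization, so a value of 4 stands for no signal and a gene with little signal shows too small a difference. The median gene had a level of 7.06 and the 25th percentile was 5.37. A difference is called when its adjusted p (limma, Benjamini-Hochberg over all genes) is under 0.05, and it is given with its standard error (SE). Arrays had a median intensity of 55.5 to 76.3, and precision is limited by their number. The labelled cell type had its markers, with mean levels of the 8 CD4 T cell markers measured between 11.93 and 13.37 on every array. These means were 12.59 to 13.37 at rest and 11.93 to 12.19 after stimulation. Of the 8, stimulation lowered 5 in WT, 4 in Gli2A Tg, where 1 rose, and 6 in Gli2R Tg cells. In resting cells 1 was lower in Gli2A Tg than Gli2R Tg. Array means of 10 myeloid markers were 10.83 to 11.99 at rest and 6.31 to 8.06 after stimulation. The purity of the samples was not tested. Probe sets for Gli2 lay between group means of 4.35 and 5.39 and do not check the transgenes, because it is not stated what stretch of Gli2 these hold. Ptch1, the Hedgehog receptor gene and a textbook Gli target, had a mean level of 10.14 ± 0.17 (SD, n = 3) in stimulated WT cells, against 12.27 ± 0.22 with Gli2A Tg and 10.09 ± 0.14 with Gli2R Tg. Stimulated Gli2A Tg replicate 2 had the highest ratio of 3′ to 5′ actin signal, 2.996 where the next array had 1.82. On principal component 2, resting Gli2A Tg replicate 3 lay at 55.4 and the next array at 14.1. On component 3, stimulated Gli2A Tg replicate 2 lay at 51.0 and the next array at 16.6. Sex-linked genes had a male pattern in 2 resting WT, 1 stimulated WT and 2 stimulated Gli2R Tg arrays. The remaining groups had 0 such arrays.

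The cytokine genes of the cluster lie on mouse chromosome 11, in the RefSeq annotation of GRCm38.p6, with Il4 at chr11:53612460-53618665, Il13 at chr11:53631323-53634702 and Il5 at chr11:53720794-53725103. Their 250 bases before the start site are shown because Il4 passed the test between genotypes while Il5 and Il13, beside it, did not. A pass beside misses is not a test that the genes differ, and a part of these sequences in it was not tested. Capitals mark the core NFAT motif GGAAA and its complement TTTCC, searched on both strands. The windows are chr11:53618666-53618915 (minus strand) for Il4, chr11:53634703-53634952 (minus strand) for Il13 and chr11:53720544-53720793 (plus strand) for Il5, each read 5′ to 3′ from RefSeq.
Il4: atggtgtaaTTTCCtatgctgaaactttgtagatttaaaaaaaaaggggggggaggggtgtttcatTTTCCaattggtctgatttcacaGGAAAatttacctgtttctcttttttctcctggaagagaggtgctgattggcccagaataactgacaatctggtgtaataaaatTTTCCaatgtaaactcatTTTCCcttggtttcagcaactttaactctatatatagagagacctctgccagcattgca
Il13: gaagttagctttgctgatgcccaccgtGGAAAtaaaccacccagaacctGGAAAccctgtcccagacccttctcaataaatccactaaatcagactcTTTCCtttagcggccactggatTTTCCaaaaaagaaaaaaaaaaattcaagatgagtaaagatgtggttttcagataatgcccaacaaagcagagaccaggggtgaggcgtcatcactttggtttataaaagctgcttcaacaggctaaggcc
Il5: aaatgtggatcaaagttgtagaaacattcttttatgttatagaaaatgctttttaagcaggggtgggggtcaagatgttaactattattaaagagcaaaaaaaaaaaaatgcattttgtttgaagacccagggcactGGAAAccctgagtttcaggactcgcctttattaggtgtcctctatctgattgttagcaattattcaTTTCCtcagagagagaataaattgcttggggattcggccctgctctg

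The Il4 window held 5 NFAT cores, with their upstream ends 241, 184, 161, 77 and 59 bases before the start, and 0.390% of 32851 mouse promoter windows of the same length held at least as many. The Il13 window held 4, at 223, 201, 153 and 131 bases, at least as many as which lay in 1.59% of windows. The Il5 window held 2, at 113 and 47 bases, and 21.4% of windows held at least as many. One core or more was present in 55.6% of all windows, with 1 in that of Il4ra and 0 in those of Nfil3, upstream of a start inside its annotated span, and Bhlhe41. The Gli motif GACCACCCA, present in 0.225% of windows, was in 0 of the 6 member windows in the promoter table. Its shorter core CCACCCA, present in 8.11% of windows and contained in the longer motif, was in the Il13 window alone among these 6, 214 bases before the start. The STAT6 motif (TTC and GAA parted by 4 bases) lay in the Il4 window at 167 bases and in 5.85% of all windows. The GATA motif GATAA lay in the Il13 window at 80 bases and in 22.6% of windows, and the E-box CACGTG in the Bhlhe41 window at 153 bases and in 6.02% of windows. The AP-1 motif TGANTCA (6.75% of windows) and the NFIL3 motif TTANGTAA (2.06% of windows) had 0 matches in the 6 windows. A match describes these letters and is not evidence of binding.

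**Figure D1:**
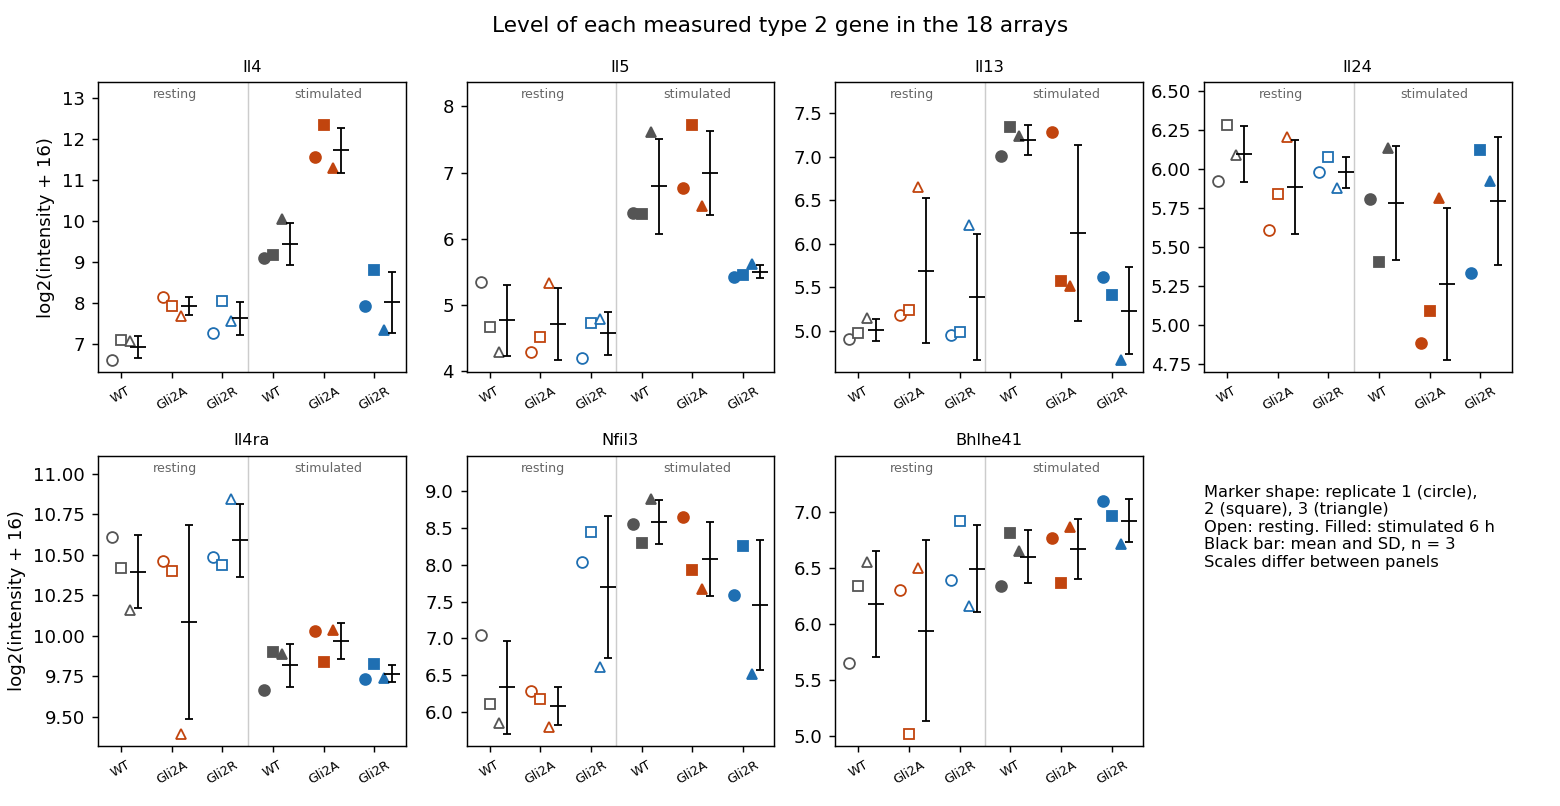
Level of the 7 measured genes, as log2 of intensity plus 16, in the 18 arrays by genotype (horizontal axis), with resting cells as open and stimulated cells as filled symbols, 1 point per array and a black bar for the mean and SD of 3 arrays. The 3 stimulated Gli2A Tg arrays lie at 11.28 to 12.33 for Il4, above all other arrays, and the stimulated WT arrays at 7.004 to 7.34 for Il13.

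Stimulation changed 4 of the 7 genes in WT cells, Il4, Il5, Il13 and Nfil3, all of them up, where 41.7% of all genes were called (19.7% higher and 22% lower). In Gli2A Tg cells it changed 3, Il4, Il5 and Nfil3, all up, where 42.9% were called (20.2% higher and 22.8% lower). In Gli2R Tg cells it changed 1, Il4ra, which was lower, where 42.3% were called (19.8% higher and 22.5% lower). The share of all genes called was of similar size in each genotype. The counts are of 7 genes and were not tested against that share. Between genotypes 1 of 7, Il4, was called in stimulated Gli2A Tg against WT and against Gli2R Tg cells. It was also called in the difference between the stimulation effects of Gli2A Tg and Gli2R Tg cells. Of all genes, 0.137%, 0.231% and 0.11% were called there, in that order. In the other 6 comparisons 0 of 7 were called, where 0% to 2.4% of all genes were, so this count says little about the members.

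Il4, the cytokine gene that starts and sustains Th2 differentiation, was the one member called between genotypes, with its highest level in stimulated Gli2A Tg cells. In resting WT cells its level was 6.60, 7.09 and 7.06 on the 3 arrays, in resting Gli2A Tg cells 8.14, 7.93 and 7.69, and in resting Gli2R Tg cells 7.26, 8.04 and 7.56. After stimulation it was 9.10, 9.17 and 10.04 in WT, 11.54, 12.33 and 11.28 in Gli2A Tg and 7.91, 8.81 and 7.33 in Gli2R Tg cells. All 3 stimulated Gli2A Tg arrays lay above all stimulated WT arrays, and these above all stimulated Gli2R Tg arrays. On the deposited scale the mean intensity after stimulation was 647 for WT, 3743 for Gli2A Tg and 238 for Gli2R Tg.

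Stimulation raised Il4 by 2.52 ± 0.37 (SE) in WT cells, 5.73-fold (adjusted p = 5e-05), and by 3.80 ± 0.37 in Gli2A Tg cells, 13.9-fold (adjusted p = 7.51e-07). In Gli2R Tg cells the difference was 0.40 ± 0.37 (95% interval -0.40 to 1.19), the resting and stimulated arrays overlapped, and the test was missed (adjusted p = 0.434). The difference between the stimulation effects of Gli2A Tg and Gli2R Tg cells was 3.40 ± 0.52 (adjusted p = 0.019). It passed in 0.11% of all genes, 20 in number. This call was lost in 7 of 30 alternatives, namely sex as a covariate (3.003, adjusted p = 0.0578), the compared groups alone (adjusted p = 0.0678), and the fits without resting Gli2A Tg replicate 2 (0.0529) or 3 (0.0546), resting Gli2R Tg replicate 2 (0.0705), stimulated Gli2A Tg replicate 2 (0.0727) or stimulated Gli2R Tg replicate 1 (0.0653). Against WT the stimulation effect differed by 1.28 ± 0.52 in Gli2A Tg cells (adjusted p = 0.43), where 0.011% of genes passed. For Gli2R Tg against WT it differed by -2.12 ± 0.52 (adjusted p = 0.284). By limma 0% of genes, 0 in number, passed in that comparison, and 1574 had an unadjusted p under 0.05.

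Among stimulated cells, Il4 was 4.86-fold higher in Gli2A Tg than in WT cells (2.28 ± 0.37, 95% interval 1.49 to 3.07, adjusted p = 0.0262), where 0.137% of genes passed. This was the highest log2 difference of all 18193 genes, also with median centring (2.48), with the deposited scaling alone (2.49) and with 64 added (2.20), while with 1 added before the logarithm its rank was 59. Against Gli2R Tg cells Il4 was 13.02-fold higher (3.70 ± 0.37, adjusted p = 0.000587), where 0.231% of genes passed, and its rank was 1 of 18193 under all 5 scalings. Both comparisons share the 3 stimulated Gli2A Tg arrays. A fit of the compared groups alone lost both calls (adjusted p = 0.233 against WT and 0.201 against Gli2R Tg). The call against WT was also lost without stimulated WT replicate 1 (2.11, adjusted p = 0.0737) or 2 (2.15, 0.0747) and without stimulated Gli2A Tg replicate 1 (2.37, 0.0632) or 2 (1.97, 0.0966). Replicate 2 of stimulated Gli2A Tg was the array with the highest Il4 level, the highest actin ratio and the value that stood apart on component 3. With sex as a covariate the difference from WT was 2.08 (adjusted p = 0.0362).

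Il4 was lower in stimulated Gli2R Tg than WT cells by value, at -1.42 ± 0.37 (95% interval -2.21 to -0.63), and missed the test (adjusted p = 0.225), with 0.044% of genes called. In resting cells Il4 differed from WT by 1.0 ± 0.37 in Gli2A Tg (adjusted p = 0.339, 0.55% of genes called) and by 0.70 ± 0.37 in Gli2R Tg cells (adjusted p = 0.56). By limma 0% of genes were called in resting Gli2R Tg against WT cells, and 1869 had an unadjusted p under 0.05. Resting Gli2A Tg against Gli2R Tg gave 0.30 ± 0.37 (adjusted p = 0.761), where 2.4% of genes were called. The resting arrays of each transgenic group lay above all 3 resting WT arrays. Ordered by mean, Il4 was highest in stimulated Gli2A Tg (11.72), then stimulated WT (9.44), stimulated Gli2R Tg (8.02), resting Gli2A Tg (7.92), resting Gli2R Tg (7.62) and resting WT cells (6.92). In this order the test passed for the leading pair and missed for stimulated WT and Gli2R Tg and for each neighbouring resting pair, and the SDs were 0.22 to 0.75. Stimulated Gli2R Tg and resting Gli2A Tg cells were not tested against each other, and their arrays overlapped. These are bulk samples, in which more Il4-expressing cells and more Il4 RNA per cell cannot be told apart.

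**Figure D2:**
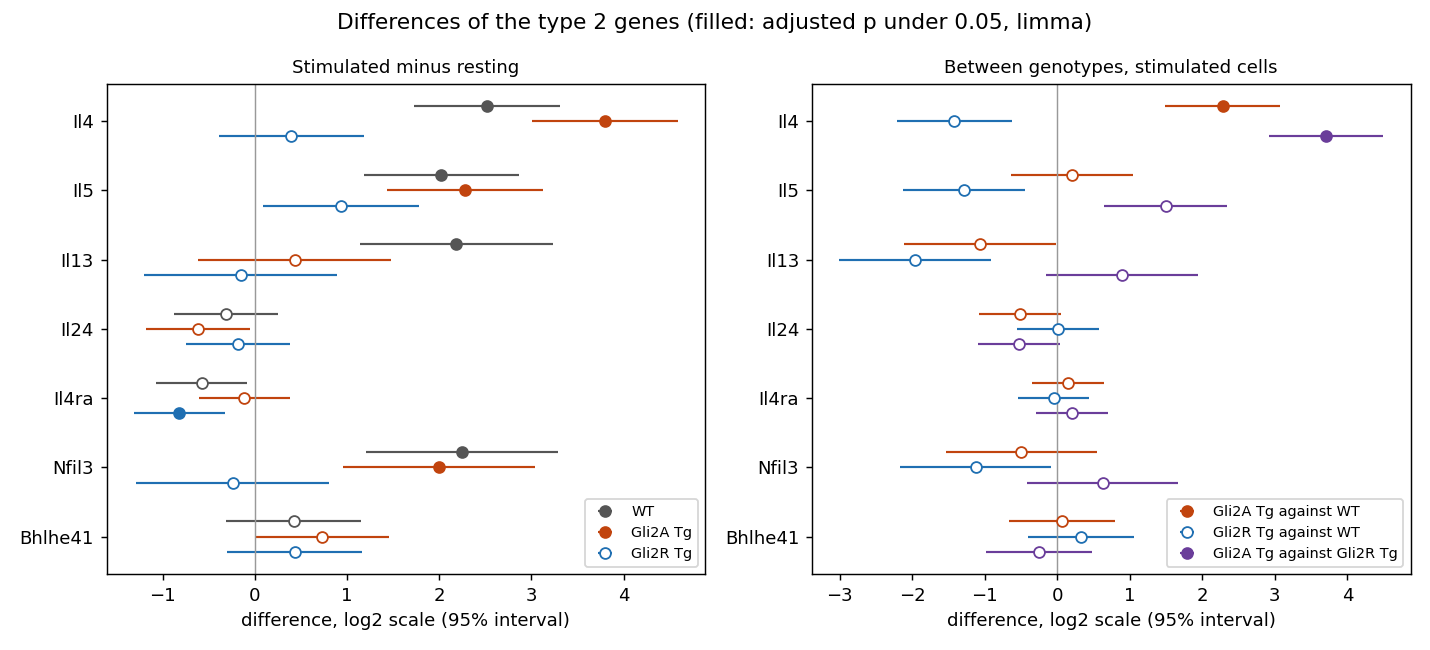
Log2 differences of the 7 genes with 95% intervals from limma, for stimulated minus resting cells in each genotype (left) and between genotypes in stimulated cells (right), 3 arrays against 3, with filled symbols for an adjusted p under 0.05. Among the comparisons between genotypes, Il4 alone has filled symbols, at 2.28 and 3.70.

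Il5, the eosinophil growth factor, rose with stimulation in WT and Gli2A Tg cells from levels near the floor. Its resting levels were 5.34, 4.66 and 4.30 in WT, 4.30, 4.52 and 5.33 in Gli2A Tg and 4.20, 4.73 and 4.79 in Gli2R Tg cells. Its stimulated levels were 6.39, 6.37 and 7.62 in WT, 6.77, 7.72 and 6.49 in Gli2A Tg and 5.43, 5.46 and 5.62 in Gli2R Tg cells. The stimulated WT and Gli2A Tg arrays overlapped, and all 3 stimulated Gli2R Tg arrays lay below them. The rise was 2.02 ± 0.39 in WT (adjusted p = 0.000633) and 2.28 ± 0.39 in Gli2A Tg cells (adjusted p = 0.000214). Its size rests on the amount added before the logarithm, at 3.15 and 3.52 with 1 added and 1.09 and 1.24 with 64 added, and it passed in each. In Gli2R Tg cells the difference was 0.93 ± 0.39 (adjusted p = 0.0727), which passed in 6 of 29 alternatives. Stimulated Gli2R Tg cells were lower than WT by value, at -1.29 ± 0.39 (adjusted p = 0.314), and lower than Gli2A Tg, with Gli2A Tg minus Gli2R Tg at 1.49 ± 0.39 (adjusted p = 0.162). Stimulated Gli2A Tg minus WT was 0.20 ± 0.39 (95% interval -0.64 to 1.05), beside 2.28 for Il4 (95% interval 1.49 to 3.07). Setting these intervals side by side is not a test between the genes.

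Il13, which acts through a receptor that shares the Il4ra chain, rose in WT cells. Resting WT arrays read 4.90, 4.97 and 5.15 and stimulated ones 7.004, 7.34 and 7.24, a rise of 2.18 ± 0.49 (adjusted p = 0.00193) that was 1.28 with 64 added and still passed. Stimulated Gli2A Tg arrays read 7.29, 5.57 and 5.51, so replicate 1 lay at the WT level and the other two near the resting arrays, which read 5.18, 5.23 and 6.66. The stimulation difference there was 0.43 ± 0.49 (adjusted p = 0.525). Gli2R Tg arrays read 4.95, 4.98 and 6.22 at rest and 5.62, 5.41 and 4.66 after stimulation, a difference of -0.15 ± 0.49 (adjusted p = 0.838). Stimulated Gli2R Tg minus WT was -1.96 ± 0.49 (adjusted p = 0.219), the 4th lowest value of 18193 genes, with no overlap between the arrays. Stimulated Gli2A Tg minus WT was -1.07 ± 0.49 (adjusted p = 0.425), of opposite sign to Il4 by value. Neither comparison passed the test.

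Within stimulated arrays, Il4 minus Il13 was higher in Gli2A Tg than in WT cells by 3.35 on the log2 scale, and Il4 minus Il5 by 2.08. In each case the 3 Gli2A Tg arrays lay above the 3 WT arrays, which gives p = 0.1 in the two-sided exact permutation test, the smallest that 3 against 3 arrays allow. Adjusted over the 18 contrasts of this kind, Il4 against each other member in 3 genotype comparisons, these were p = 0.12 (exact permutation test). No contrast could fall under 0.05, and Il4 was itself called on these Gli2A Tg arrays, so the values are a description. Between stimulated Gli2R Tg and WT cells, Il4 minus Il5 differed by -0.13 (exact permutation p = 0.8) and Il4 minus Il13 by 0.54 (exact permutation p = 0.3).

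Il24, a cytokine of the interleukin-10 family that lies beside Il10 on chromosome 1 (chr1:130882074-130887411), had low levels in all groups, with means of 5.26 to 6.10. Its arrays ran from 4.89 in stimulated Gli2A Tg replicate 1 to 6.28 in resting WT replicate 2. Stimulation gave -0.32 ± 0.26 in WT (adjusted p = 0.381), -0.62 ± 0.26 in Gli2A Tg (adjusted p = 0.0726) and -0.19 ± 0.26 in Gli2R Tg cells (adjusted p = 0.622). None of its 12 comparisons passed. In the Gli2A Tg stimulation comparison it passed in 2 of 29 alternatives.

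Il4ra, the chain that binds interleukin-4 (chr7:125552271-125579474), fell on stimulation in Gli2R Tg cells, a call that depends on the probe set read. Resting arrays read 10.61, 10.42 and 10.16 in WT, 10.46, 10.40 and 9.40 in Gli2A Tg and 10.49, 10.43 and 10.85 in Gli2R Tg cells. Stimulated arrays read 9.66, 9.90 and 9.89 in WT, 10.03, 9.84 and 10.04 in Gli2A Tg and 9.73, 9.83 and 9.74 in Gli2R Tg cells. Resting and stimulated arrays overlapped in Gli2A Tg cells and were apart in the others. It fell by 0.82 ± 0.23 in Gli2R Tg cells on stimulation (adjusted p = 0.00905), and the differences were -0.58 ± 0.23 in WT (adjusted p = 0.0578), which passed in 10 of 30 alternatives, and -0.12 ± 0.23 in Gli2A Tg cells (adjusted p = 0.731). The low array of resting Gli2A Tg, 9.40, is the replicate that stood apart, and without it the stimulation difference there was -0.46 (adjusted p = 0.0339). The 3 probe sets of Il4ra did not move together. In a fit of all 34945 probe sets with 1 symbol, a second one fell in every genotype, with differences of -1.43, -1.48 and -1.68 for WT, Gli2A Tg and Gli2R Tg (adjusted p = 0.00115, 0.000817 and 0.000292). The third rose by 1.54 in Gli2R Tg cells (adjusted p = 0.000646) and differed by 0.61 in WT and 0.61 in Gli2A Tg cells (adjusted p = 0.128 and 0.122). With the mean of the probe sets, the difference in Gli2R Tg cells was -0.32 and missed the test (adjusted p = 0.171), and that in WT cells was -0.47 and passed (adjusted p = 0.0459). Between genotypes none of the 3 probe sets passed. Beside the stimulation differences of Il4ra, 9 of 10 myeloid markers fell in each genotype, and the part of myeloid cells in them was not tested.

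Nfil3, a basic leucine zipper factor that T cells induce on activation (chr13:52967209-52982878), rose with stimulation in WT and Gli2A Tg cells. Resting arrays read 7.05, 6.11 and 5.85 in WT, 6.28, 6.18 and 5.80 in Gli2A Tg and 8.04, 8.44 and 6.61 in Gli2R Tg cells. Stimulated arrays read 8.55, 8.29 and 8.90 in WT, 8.64, 7.94 and 7.67 in Gli2A Tg and 7.59, 8.26 and 6.51 in Gli2R Tg cells. Resting and stimulated arrays were apart in WT and Gli2A Tg cells and overlapped in Gli2R Tg cells. The rise was 2.25 ± 0.49 in WT (adjusted p = 0.0015) and 1.997 ± 0.49 in Gli2A Tg cells (adjusted p = 0.00345). In Gli2R Tg cells replicates 1 and 2 were already high at rest and the difference was -0.24 ± 0.49 (adjusted p = 0.735). The stimulation effect differed by -2.49 ± 0.69 between Gli2R Tg and WT cells (adjusted p = 0.296) and by 2.24 ± 0.69 between Gli2A Tg and Gli2R Tg cells (adjusted p = 0.252), and neither passed. Resting Gli2A Tg minus Gli2R Tg was -1.61 ± 0.49 (adjusted p = 0.0975). It passed in 3 of 30 alternatives, one of them without resting Gli2R Tg replicate 3 (-2.15, adjusted p = 0.0308). That replicate was also the low one of its group for Il10, at 6.71 where the others read 8.64 and 8.63.

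Bhlhe41, a helix-loop-helix repressor (chr6:145858243-145865420), passed in none of 12 comparisons. Its brightest probe set had group means of 5.94 to 6.92, from 5.02 in resting Gli2A Tg replicate 2 to 7.09 in stimulated Gli2R Tg replicate 1. Stimulation gave 0.42 ± 0.34 in WT (adjusted p = 0.363), 0.73 ± 0.34 in Gli2A Tg (adjusted p = 0.104) and 0.43 ± 0.34 in Gli2R Tg cells (adjusted p = 0.351). The Gli2A Tg difference passed in 2 of 29 alternatives, one of them without resting Gli2A Tg replicate 3 (adjusted p = 0.0368). Its other probe set stayed near the floor, with group means of 4.24 to 4.34.

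The genes most like Il4 over the 9 stimulated arrays, by Pearson correlation, were Gpat3, an acyltransferase of triglyceride synthesis (r = 0.98), Dennd5a (0.98), Pros1, the gene for the anticoagulant protein S (0.98), Pgpep1 (0.97) and the leukotriene receptor gene Cysltr1 (0.97). Spearman's rho was 0.967 or 0.983 for each, and r stayed at 0.957 to 0.995 without the 2 arrays farthest from the median of Il4. The 9 arrays hold 3 genotypes. The genes were picked as the most alike among genes at or above the median level, without members and clone or predicted-gene names. Genes whose r fell below 0.7 without the 2 arrays farthest from the median of the member had been left out. The r without these arrays is therefore not a separate check, and the values are a description without a p. The genes most like the other members had r of 0.956 to 0.959 for Il5 (Gpx4, Gpalpp1 and Fcf1), 0.927 to 0.942 for Il13 (Clic4, Akt2 and Tollip), 0.890 to 0.948 for Il4ra (Tfpt, Eif2b2 and Rrp36), 0.921 to 0.940 for Nfil3 (Eef1akmt2, Sdc4 and Tmem214), 0.918 to 0.954 for Bhlhe41 (Dbt, Nsmce3 and Tcap) and 0.883 to 0.901 for Il24 (Ssr3, Isoc1 and Emd).

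Other cytokines and surface molecules of Th2 cells moved both ways with stimulation. Of 14 genes listed, 13 were measured, and 7 rose and 2 fell in WT, 7 and 2 in Gli2A Tg, and 6 and 3 in Gli2R Tg cells. The share of all genes called was 41.7%, 42.9% and 42.3% in these comparisons. The list medians were 1.31, 0.79 and 0.95, where the median of all genes lay between -0.00923 and 0.0143 in the 12 comparisons. Csf2, the gene for GM-CSF, rose by 4.71 ± 0.37 for WT, 5.67 ± 0.37 for Gli2A Tg and 2.60 ± 0.37 for Gli2R Tg. The chemokine receptor gene Ccr8 rose by 4.38 ± 0.45, 4.21 ± 0.45 and 4.19 ± 0.45 in the same order, and Tnfsf11, the gene for RANKL, by 2.78, 3.09 and 2.66. Il3, a mast cell growth factor, rose by 2.51 ± 0.49 in WT cells (adjusted p = 0.00067), with 0.21 ± 0.49 in Gli2A Tg (adjusted p = 0.779) and 1.003 ± 0.49 in Gli2R Tg cells (adjusted p = 0.121). Ccr3, the eotaxin receptor gene that eosinophils carry, fell in each genotype, with differences of -4.69, -5.54 and -4.003. Beside it, 3 of the 5 eosinophil markers measured, a list that holds Ccr3 itself, fell for WT, 3 for Gli2A Tg and 2 for Gli2R Tg.

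Csf2 was the only gene of this list whose stimulation effect differed between Gli2A Tg and Gli2R Tg cells, by 3.07 ± 0.53 (adjusted p = 0.0397). Its stimulated levels were 9.86, 10.65 and 9.91 in WT, 10.88, 11.18 and 10.62 in Gli2A Tg and 9.06, 9.37 and 9.07 in Gli2R Tg cells, and its resting levels were 5.80, 5.72 and 4.77, then 6.15, 4.62 and 4.90, then 6.89, 6.16 and 6.64. The call held in 13 of 30 alternatives, and it was lost without any 1 of 15 arrays, with adjusted p up to 0.121 without stimulated Gli2A Tg replicate 2. In stimulated cells 0 of the 13 passed between genotypes, where 0.044% to 0.231% of all genes were called, so this count says little. In resting cells Il10, which encodes a regulatory cytokine, was lower in Gli2A Tg than Gli2R Tg cells (-1.75 ± 0.43, adjusted p = 0.0494), and this held in 8 of 29 alternatives, with adjusted p = 0.179 without resting Gli2R Tg replicate 2. Beside it, the 4 regulatory T cell markers summed to 8159, 8459 and 3628 in resting Gli2R Tg and 4249 to 5293 in resting Gli2A Tg arrays. Within resting Gli2R Tg cells, Il10 and Nfil3 were also higher in replicates 1 and 2 than in replicate 3. Il3 in stimulated Gli2A Tg cells read 5.84, 4.17 and 4.44, below all WT arrays (6.98, 6.70 and 6.98), so replicate 1 was the high array for Il3 as it was for Il13.

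**Figure D3:**
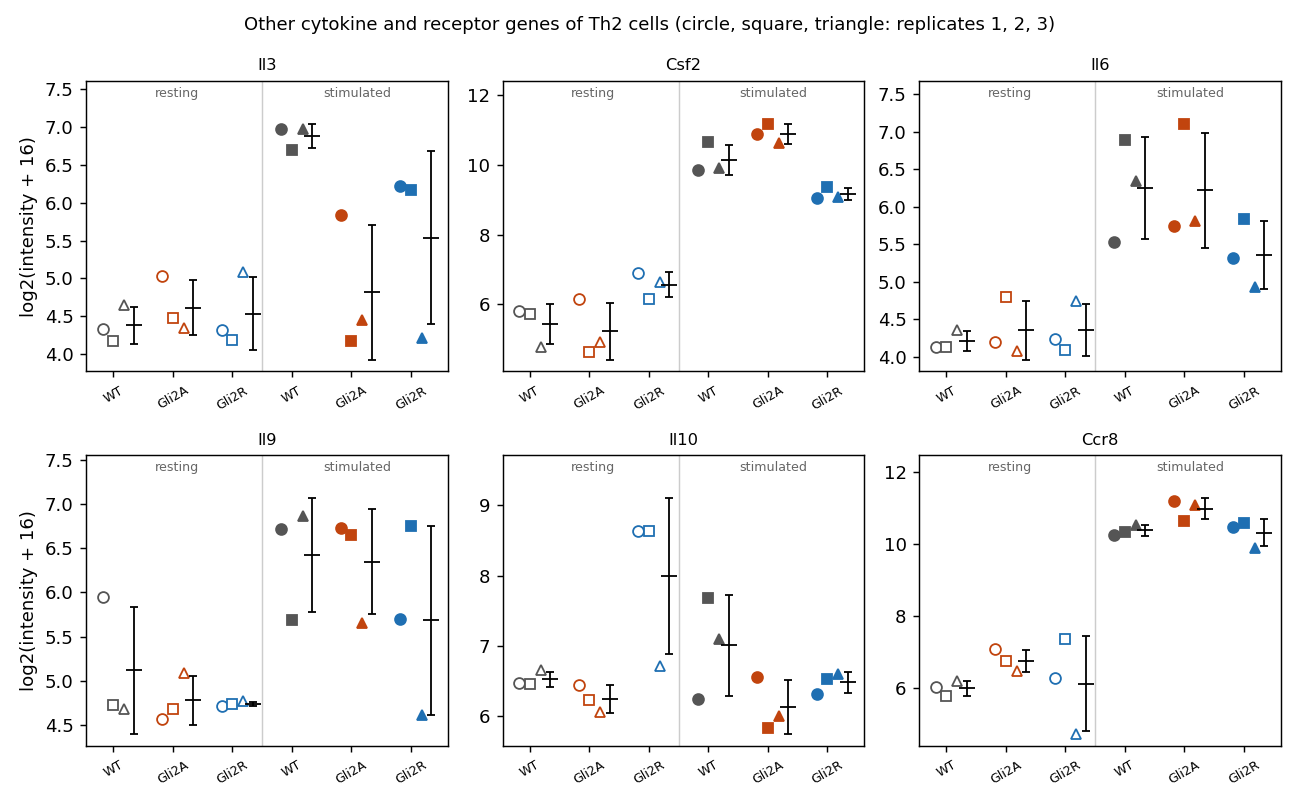
Levels of Il3, Csf2, Il6, Il9, Il10 and Ccr8, as log2 of intensity plus 16, by genotype in resting (open) and stimulated (filled) arrays, 1 point per array with the mean and SD of 3 arrays as a black bar. Stimulated Csf2 lies at 10.62 to 11.18 in Gli2A Tg and 9.06 to 9.37 in Gli2R Tg arrays.

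Receptor chains for type 2 cytokines went both ways. Of 12 measured (13 listed), 4 rose and 2 fell in WT, 2 and 4 in Gli2A Tg and 2 and 3 in Gli2R Tg cells, with medians of -0.06, 0.01 and 0.08. These counts are near the share of all genes called, which was 41.7%, 42.9% and 42.3%, as are those of the signalling list that follows, so they set neither list apart. Il7r, which encodes a chain of the interleukin-7 and TSLP receptors, fell, with differences of -3.33, -3.55 and -3.52 (SE 0.13 each) in WT, Gli2A Tg and Gli2R Tg cells. Il1rap, the partner chain of the interleukin-33 receptor, rose by 1.52, 1.53 and 1.94, and Il13ra1, which pairs with Il4ra, fell, with differences of -2.02, -1.11 and -1.34. Beside Il13ra1, 9 of 10 myeloid markers fell in each genotype. Csf2rb2, a beta chain of the interleukin-3 receptor, rose by 2.40, 1.97 and 2.30. In resting cells the common beta chain gene Csf2rb was higher in Gli2A Tg than Gli2R Tg cells (1.49 ± 0.20, adjusted p = 0.00164), a call lost in the fit of these 6 arrays alone (adjusted p = 0.0561). Beside it, the summed myeloid markers of these groups did not overlap, at 82392 to 88446 against 35528 to 45044. Il7r was lower there (-0.53 ± 0.13, adjusted p = 0.0466), a call that held in 10 of 30 alternatives. In stimulated cells 0 of 12 passed between genotypes, beside 0.044% to 0.231% of all genes, so this count says little.

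Of 13 genes of signalling from the interleukin-4 receptor, all measured, stimulation raised 5 and lowered 1 in WT cells. It raised 5 and lowered 2 in Gli2A Tg cells and raised 5 and lowered 1 in Gli2R Tg cells, with medians of 0.16, 0.38 and -0.02. The STAT5 target and feedback inhibitor gene Cish rose by 3.17 ± 0.19, 2.98 ± 0.19 and 2.53 ± 0.19, and the inhibitor gene Socs1 by 1.99, 1.81 and 1.33. The kinase gene Jak1 fell, with differences of -1.99, -1.85 and -2.05. Stat6, the factor that carries the interleukin-4 signal, fell by 0.41 ± 0.16 in Gli2A Tg cells (adjusted p = 0.0491), a call not run through the alternatives. Its mean level was also lower by value after stimulation in WT cells (11.67 at rest and 11.44 after) and Gli2R Tg cells (11.62 and 11.43), where the test was missed. Between genotypes 0 of 13 passed in any comparison, where 0% to 2.4% of all genes were called, so this count says little about the list.

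Transcription factors of Th2 cells, 13 measured of 15 listed, had 5 higher and 3 lower in WT, 4 and 4 in Gli2A Tg and 4 and 5 in Gli2R Tg cells, with medians of -0.0096, 0.32 and 0.04, beside 41.7%, 42.9% and 42.3% of all genes called. Irf4, which effector T cells need, rose by 5.76 ± 0.25, 5.75 ± 0.25 and 4.81 ± 0.25, and Bhlhe40, the close relative of Bhlhe41, by 3.79, 2.98 and 2.59. Pparg, a nuclear receptor gene also high in macrophages, fell, with differences of -3.49, -3.19 and -3.38, and beside it 9 of 10 myeloid markers fell in each genotype. Gata3, the main regulator of the Th2 state, fell by 0.73 ± 0.21 in Gli2R Tg cells (adjusted p = 0.0123). Its stimulated levels were 9.77, 9.80 and 9.94 in WT, 9.92, 9.56 and 10.06 in Gli2A Tg and 9.78, 9.78 and 9.18 in Gli2R Tg cells, and these overlapped. Stimulated Gli2A Tg minus WT was 0.01 for Gata3 (adjusted p = 0.994), beside 2.28 for Il4. Junb, an AP-1 subunit, was lower in resting Gli2A Tg than Gli2R Tg cells (-2.90 ± 0.49, adjusted p = 0.00573), with levels of 11.77, 10.46 and 9.65 against 13.91, 13.57 and 13.11, and the fit of these 6 arrays alone lost the call (adjusted p = 0.0768).

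Genes beside the members in the genome were read in 3 lists. Of 5 measured neighbours of the Il4, Il13 and Il5 cluster (7 listed), 0 rose in any genotype, and 2, 2 and 1 fell. The carnitine and ergothioneine transporter gene Slc22a4 fell by 1.18 ± 0.26 in WT and fell by 1.78 ± 0.26 in Gli2A Tg cells, and the kinesin gene Kif3a fell by 0.87 ± 0.17 in WT and fell by 0.53 ± 0.17 in Gli2R Tg cells. The DNA repair gene Rad50, which lies between Il13 and Il5, fell by 0.99 ± 0.21 in Gli2A Tg cells. In stimulated cells 0 of the 5 passed between genotypes, beside 0.044% to 0.231% of all genes. The counts on stimulation are of few genes beside the 41.7%, 42.9% and 42.3% of all genes called. In resting cells Slc22a4 was higher in Gli2A Tg than Gli2R Tg cells (1.82 ± 0.26, adjusted p = 0.00242), with 0.81 to 3.64 over 29 alternatives, and the call was lost with the compared groups alone (0.0738). Beside it, the summed erythroid markers of these groups, 11985 to 32016 against 2098 to 4364, and the summed myeloid markers did not overlap. Resting Gli2A Tg replicate 3 had both the highest Slc22a4 level, 6.81, and the highest erythroid sum. Beside Il24, 4 neighbours were measured of 5 listed, of which 1 rose in each genotype and 1, Il10, fell in Gli2R Tg cells (-1.52 ± 0.43, adjusted p = 0.0102). The kinase gene Mapkapk2 rose by 0.74, 0.73 and 0.74 in WT, Gli2A Tg and Gli2R Tg cells. Around the unmeasured Il1rl1, all 6 listed neighbours were measured, and 2 rose and 2 fell in WT, 2 and 2 in Gli2A Tg and 1 and 2 in Gli2R Tg cells. The interleukin-18 receptor gene Il18r1 fell with stimulation, with differences of -1.77, -3.51 and -2.68, and was higher in resting Gli2A Tg than WT cells (1.40 ± 0.25, adjusted p = 0.0199), groups between which the natural killer T and innate lymphoid sums did not overlap. That call was lost with median centring (0.0512), sex as a covariate (0.056), the compared groups alone (0.179) and without replicate 3 of resting WT (0.0745) or replicate 2 of resting Gli2A Tg (0.0726). The epithelial inducers Il33, Il25 and Tslp had levels of at most 6.15 on any array, and 0 of these 3 passed in any comparison.

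Other cells can make the same cytokines, and their markers were read beside Il4. The summed intensity of 10 basophil and mast cell markers (11 listed) was 1002 to 1429 in stimulated WT, 1217 to 1427 in Gli2A Tg and 1018 to 1163 in Gli2R Tg arrays, so WT overlapped with both, while the Gli2A Tg arrays lay above the Gli2R Tg arrays. Mcpt8, a basophil protease gene, read 6.46 to 6.87 in stimulated WT, 6.48 to 7.18 in Gli2A Tg and 5.74 to 6.95 in Gli2R Tg arrays, and 0 of the 10 passed between genotypes. Eosinophil markers, 5 of 6 measured, summed to 125 to 153, 79.8 to 118 and 103 to 223 in the same order. Markers of natural killer T and innate lymphoid type 2 cells, 4 of 4, summed to 807 to 939, 902 to 1049 and 685 to 716, so the Gli2R Tg arrays lay below the others and WT overlapped with Gli2A Tg. Myeloid markers, 10 of 10, summed to 935 to 1438, 1387 to 3873 and 843 to 1167, highest in Gli2A Tg replicate 1, with Gli2A Tg above all Gli2R Tg arrays and overlapping with WT, and 0 of 10 passed between stimulated genotypes. In resting cells myeloid sums were far higher, at 48422 to 71225 in WT, 82392 to 88446 in Gli2A Tg and 35528 to 45044 in Gli2R Tg arrays, with no overlap between the 3 genotypes. Resting basophil and mast cell sums were 1555 to 2241 in WT, 1589 to 2005 in Gli2A Tg and 1035 to 1345 in Gli2R Tg arrays, so the lowest were in Gli2R Tg. Resting sums of the natural killer T and innate lymphoid type 2 list were 1049 to 1236 in WT, 1468 to 1951 in Gli2A Tg and 1452 to 1594 in Gli2R Tg arrays. Both transgenic groups thus lay above all resting WT arrays for this list, as they did for Il4, and 1 of its 4 genes, Rora, was called between resting Gli2A Tg and WT cells (0.76 ± 0.16, adjusted p = 0.0451). Of the other lists, B cell, natural killer and CD8 T cell, regulatory T cell and erythroid markers had 0 calls between stimulated genotypes. Between stimulated genotypes 0.044% to 0.231% of all genes were called, so 0 calls in a marker list says little about these cells. At rest, the sums of the 4 erythroid markers measured were 8145 to 12492 in WT, 11985 to 32016 in Gli2A Tg and 2098 to 4364 in Gli2R Tg arrays, with the Gli2R Tg arrays below all others. Of these 4, Alas2 passed in resting Gli2A Tg against Gli2R Tg cells (4.18 ± 0.59, adjusted p = 0.00194). The part of these cells in the differences of Il4, of the other members and of the listed genes was not tested.

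**Figure D4:**
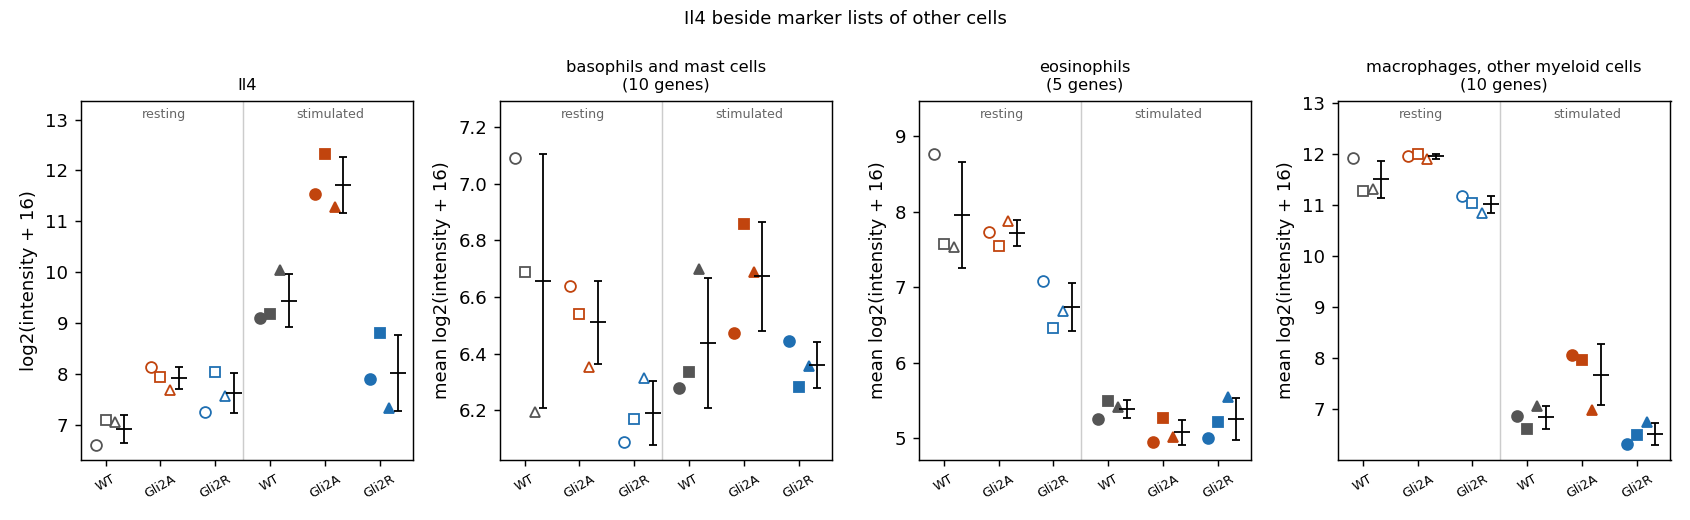
Il4 level (log2 of intensity plus 16) beside the mean level of 10 basophil and mast cell, 5 eosinophil and 10 myeloid marker genes on each array, by genotype in resting (open) and stimulated (filled) cells, with the mean and SD of 3 arrays as a black bar. The stimulated basophil and mast cell means lie at 6.28 to 6.70 in WT, 6.47 to 6.86 in Gli2A Tg and 6.28 to 6.45 in Gli2R Tg arrays. Il4 runs from 9.10 to 10.04, 11.28 to 12.33 and 7.33 to 8.81 in the same order. For both, the Gli2A Tg arrays lie above the Gli2R Tg arrays.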

How the data were processed

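RNA was hybridised to Affymetrix mouse arrays, and the labels' protocols name both a column kit and a phenol reagent for its extraction. The values deposited by the authors are linear intensities per probe set, computed with the tool affy per the submitters' processing notes, with its version not given in the sources used here. On every array they have a 2% trimmed mean of 500, which was checked on the files. The platform annotation gave 1 symbol to 34945 of 45101 probe sets, several to 932 and none to 9160, and 64 were controls. Of those with 1 symbol, 34741 were matched by Entrez identifier to the gene table. Values plus 16 were taken to log2 and quantile normalized over all probe sets, and a gene was read from its brightest probe set. One limma fit (version 3.58.1, R 4.3.3) over the 18 arrays gave 12 comparisons of 18193 genes with Benjamini-Hochberg adjustment within each. The fit was tested on simulated data. The alternatives were other scalings, added constants, filters, probe set summaries, variance models, array weights, a replicate block, sex, fits of the compared groups alone, and 18 fits with 1 array left out.

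Named genes are all members, up to 4 genes per list with the greatest called differences in a comparison described, all called genes of a list where 3 or fewer were called, and the 5 (Il4) or 3 genes most like a member. Il3, Gata3 and Mcpt8 and any further value from a list were chosen after their values were seen. Members and lists were chosen with earlier results of these data known. Of 45 pairs of arrays with the same replicate number in different groups, 2 deviated together with a correlation over 0.1 (range -0.0577 to 0.104). The numbers were not taken to pair the samples in the reported fit. This check cannot exclude that resting and stimulated samples shared animals. Groups of 3 were not tested for outlying arrays.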

Additional observations from a re-analysis of the deposited data

Results flagged for a closer look

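The stimulation effect on Il4 differed between Gli2A Tg and Gli2R Tg cells by 3.40 (limma, adjusted p = 0.019), by a test of the difference itself. That of Csf2, a gene of the Th2 cytokine list, differed between the same genotypes by 3.07 (limma, adjusted p = 0.0397). The Il4 call was lost in 7 of 30 alternatives and the Csf2 call in 17 of 30. Both comparisons use the same 12 arrays. The stimulated Gli2A Tg arrays lay above the stimulated Gli2R Tg arrays for both genes, and at rest all Csf2 arrays of Gli2R Tg cells lay above those of Gli2A Tg cells.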

How the results depend on the processing

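Il4 kept its stimulation calls in WT and Gli2A Tg cells in all 30 alternatives, as did Il5, Il13 and Nfil3 theirs in all of their 29 or 30. With the compared groups alone, Il4 kept its differences of 2.28 (Gli2A Tg against WT, stimulated), 3.70 (against Gli2R Tg) and 3.40 (difference of stimulation effects) and lost each call, as it lost the last with sex as a covariate (3.003), so the number of members called there was 0. Leaving out 1 array at a time gave 1.97 to 2.58 for the first and 3.06 to 3.80 for the last, with 0 to 1 members called in each. Il4ra in Gli2A Tg cells had a stimulation difference of -0.46 to 0.0722 over these fits, and 0.0393 without resting Gli2A Tg replicate 2. With 1 array left out, the members called on stimulation were 4 to 5 in WT, 3 to 5 in Gli2A Tg and 1 to 2 in Gli2R Tg cells, and over all alternatives 3 to 5 in WT, where Il4ra passed in 10 of 30. The Gli2R Tg count was 2 with median centring, the deposited scaling, 1 added, array weights or the compared groups alone, and 0 with the mean of probe sets. In resting Gli2A Tg against Gli2R Tg cells it was 1 with genes above the median level and with the trend and robust options, and 0 to 1 with 1 array left out. The causes were not tested.

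Of 84 pairs of member and comparison, 67 were called in none of the alternatives, and 51 of their 1968 fits turned sign. With the replicate block the adjusted p of Il4 was 0.0309, 0.000935 and 0.0167 for the 3 comparisons between genotypes that passed, and 4 members, with Il24, were called on stimulation of Gli2A Tg cells. Median centring moved the median of all genes to 0.129 and 0.111 for stimulation in WT and Gli2A Tg cells and to -0.109 for stimulated Gli2R Tg against WT cells. It moved it to -0.122 for the difference of their stimulation effects. Il5 and Il13 rest on low signal, and the constant added to the intensity sets the size of their differences.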
